A study of Mus musculus with 10 samples.

Results

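Interferon-stimulated genes were followed in the remnant kidney cortex of 10 mice that received either losartan or aliskiren. The 35 genes were taken as a named list and found by gene symbol. Where a gene had several probe sets, the one with the highest average signal was used. Of the 35, 33 were measured among the 18193 genes with a probe set of their own. Isg15, which encodes a ubiquitin-like modifier, had no probe set annotated to it alone, and Ifi44 was not analysed here. The list was read in 2 classes. The type I response class held 21 genes, of which 19 were measured, and the interferon-gamma response class held 14, all measured. Many of these genes answer to both kinds of interferon, so the classes are a convention rather than separate pathways.

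Type I interferons act through the receptor chains IFNAR1 and IFNAR2 and a complex that includes STAT2 and IRF9 and binds the interferon-stimulated response element (ISRE). Interferon-gamma, made chiefly by T and NK cells, acts through IFNGR1 and IFNGR2 and leads to binding at the gamma-activated site (GAS). The first route drives antiviral effectors such as the IFIT, OAS and MX proteins. The second raises guanylate-binding proteins, immunity-related GTPases, the immunoproteasome and the peptide transporter that loads MHC class I. Tubule cells, endothelium and resident macrophages of the kidney can all carry such a response.

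The mice were of strain FVB/N and 20 weeks old, and all had lost renal tissue by partial ablation of a kidney followed by uninephrectomy. Drug was given for 6 weeks, beginning when 6 weeks had passed since ablation and 4 since uninephrectomy. Losartan, given at 500 mg/l, blocks the type 1 angiotensin II receptor. Aliskiren, given at 50 mg/kg per day, inhibits renin. Each group held 5 mice with 1 array each, and the design asks how the remnant cortex differs between these drugs. Mice without a drug were not analysed here, so the level of the response without a drug is not known. Values are log2 expression values made with RMA, which brings arrays to a common distribution. A probe set's level depends on its own probes, so levels are compared between mice and never between genes. Of the proximal tubule markers, which define renal cortex, 9 of 9 were tested, and their mean lay between 12.59 and 13.14 in every mouse.

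The promoter sequences below belong to members that either moved together across the mice or stood apart from the rest. Only windows that held an ISRE or GAS core were chosen, and not every member with such a window is shown. They come from RefSeq windows of build GRCm38.p6, which were found for 28 of the 35 members, and are read 5′ to 3′ on the strand of the gene. The 250 bases before each annotated start were searched on both strands for the ISRE core GAAANNGAAA, which reads TTTCNNTTTC on the other strand, and for the GAS core TTCNNNGAA. Capitals mark the cores, with up to 20 bases on either side.
Ifit1, chr19:34640765-34640833, plus strand: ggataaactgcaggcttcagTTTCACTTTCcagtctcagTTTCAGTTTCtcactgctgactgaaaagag
Ifit3, chr19:34583353-34583436, plus strand: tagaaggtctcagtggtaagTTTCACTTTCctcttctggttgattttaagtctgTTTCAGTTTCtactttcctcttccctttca
Rsad2, chr12:26456543-26456592, minus strand: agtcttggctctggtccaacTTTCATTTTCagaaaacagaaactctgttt
Gbp2, chr3:142620584-142620633, plus strand: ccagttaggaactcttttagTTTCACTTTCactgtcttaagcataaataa
Gbp3, chr3:142559979-142560034, plus strand: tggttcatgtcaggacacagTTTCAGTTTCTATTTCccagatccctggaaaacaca
Igtp, chr11:58199491-58199551, plus strand: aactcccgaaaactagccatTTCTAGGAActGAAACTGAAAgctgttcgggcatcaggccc
Irgm1, chr11:48871421-48871470, minus strand: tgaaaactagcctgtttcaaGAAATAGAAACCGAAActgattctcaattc
Irf1, chr11:53769904-53769952, plus strand: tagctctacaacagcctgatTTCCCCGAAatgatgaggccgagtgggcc
Psmb8, chr17:34198078-34198126, plus strand: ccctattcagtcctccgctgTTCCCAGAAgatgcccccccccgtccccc
B2m, chr2:122147528-122147577, plus strand: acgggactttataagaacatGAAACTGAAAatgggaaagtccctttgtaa

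In Ifit1 the ISRE cores lay at -104 to -95 and at -85 to -76, counted so that -1 is the base before the annotated start. Ifit3 also held a pair of separate cores, while those of Gbp3 and of Irgm1 overlapped each other. Igtp carried a GAS core at -45 to -37 and an ISRE core at -34 to -25. Irf1 and Psmb8 held a GAS core and no ISRE core. Gbp3 and Irf1 have 2 annotated windows each, and the one with a core is shown. Of the 28 members with a window, 12 (42.9%) held the ISRE core and 7 (25%) the GAS core. Among all 27025 genes with a window these shares were 3.46% and 8.13%, and over all 32851 single windows they were 2.98% and 7.02%. The ISRE core was found in 7 of 16 type I members and in 5 of 12 interferon-gamma members. Psmb9 and Tap1, which are read in opposite directions from starts 226 bases apart, held neither core in their windows. A match describes letters in a window and says nothing about binding in these kidneys.

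The tested members mostly varied more between mice than the median gene tested, and in most members the same mice stood at the ends. Losartan mouse 3 had the highest value for 24 of the 33 measured members, whereas it was highest for 29.2% of the 11486 genes tested. It was lowest for 0 members but for 24.9% of all genes tested, so this array often stood at either end. Losartan mouse 4 had the lowest value for 23 of the 33, against 13.7% of all genes tested. The lowest and the highest mouse of most members therefore received the same drug. The difference between the drug means, without its sign, had a median of 0.11 among the tested members and 0.07 over all genes tested. The SD over the 10 mice had a median of 0.39 among the 29 members that were tested, beside 0.15 over all genes tested. Gbp2, a guanylate-binding protein gene, had the largest SD at 0.80, above 98.5% of the genes tested. Trim25, a ubiquitin ligase of the RIG-I pathway, was the steadiest at 0.09, a spread larger than that of 17.7% of them.

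**Figure D1:**
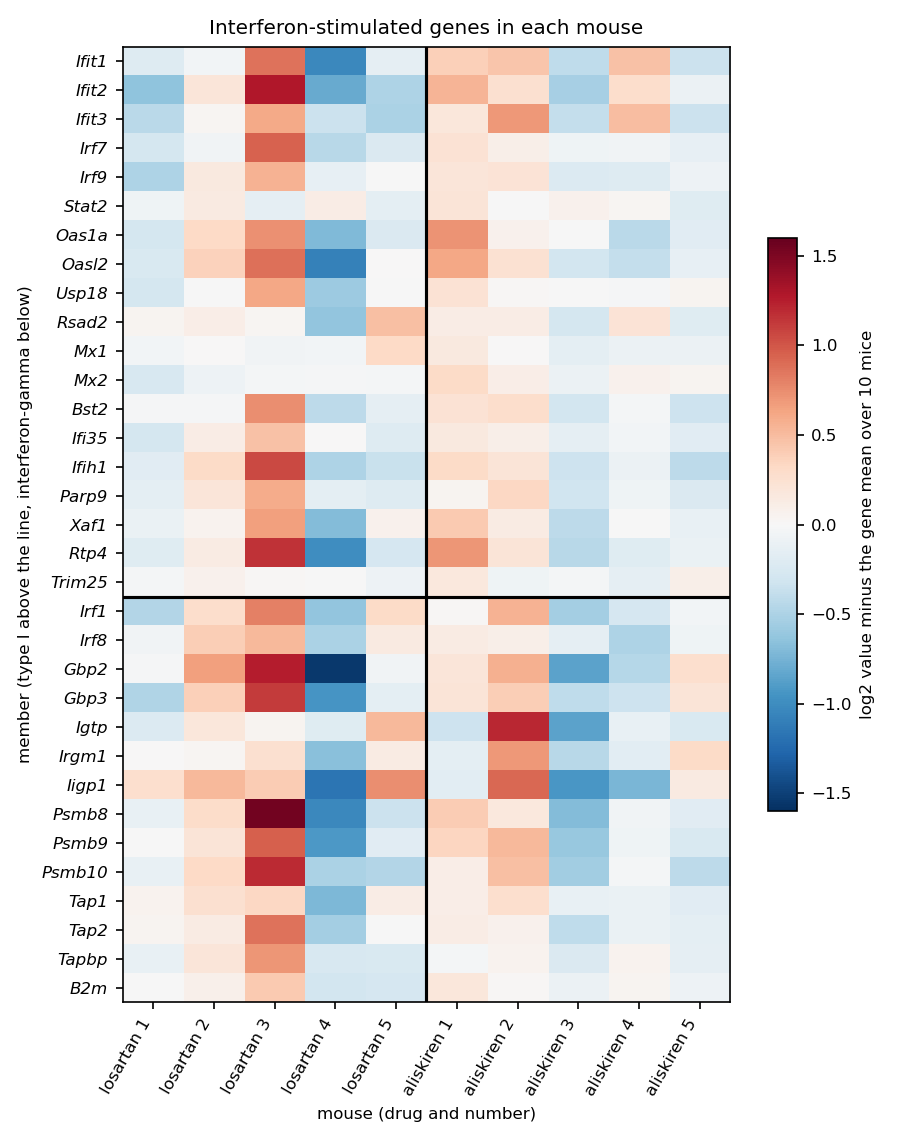
Heat map of the 33 measured members (rows, type I response above the line and interferon-gamma response below) in the 10 mice (columns, losartan left and aliskiren right), as the log2 value minus the gene's mean over all mice. Losartan mouse 3 is the darkest red column, highest for 24 members, and losartan mouse 4 the darkest blue, lowest for 23.

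Ifit1, Ifit2 and Ifit3 encode antiviral proteins that bind foreign RNA and stall its translation. Ifit1 stood at 5.75, 5.91, 6.82, 4.92 and 5.80 in losartan mice 1 to 5, and 6.34, 6.40, 5.55, 6.43 and 5.61 in aliskiren mice 1 to 5. Losartan mice 3 and 4 held the highest and the lowest value and bracketed the whole aliskiren group. Ifit2, the type I member with the largest SD, stood at 6.48, 7.31, 8.40, 6.31 and 6.62 in losartan mice 1 to 5, and 7.66, 7.37, 6.58, 7.40 and 7.02 in aliskiren mice 1 to 5. Its order was much the same, with aliskiren mouse 1 next after losartan mouse 3. Ifit3 stood at 6.25, 6.72, 7.29, 6.34 and 6.18 in losartan mice 1 to 5, and 6.86, 7.37, 6.31, 7.17 and 6.34 in aliskiren mice 1 to 5. Here aliskiren mouse 2 was highest, ahead of losartan mouse 3, losartan mouse 5 was lowest, and the groups overlapped.

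Irf7, the transcription factor that amplifies the type I response, stood at 5.58, 5.81, 6.81, 5.42 and 5.64 in losartan mice 1 to 5, and 6.10, 5.95, 5.80, 5.80 and 5.73 in aliskiren mice 1 to 5. Losartan mouse 3 lay apart from all others, which spanned 5.42 to 6.10. Rtp4, a chaperone and negative regulator of the response, stood at 7.21, 7.54, 8.56, 6.41 and 7.14 in losartan mice 1 to 5, and 8.11, 7.61, 6.96, 7.21 and 7.29 in aliskiren mice 1 to 5. The values ran from losartan mouse 4 to losartan mouse 3, with aliskiren mouse 1 next to the top. Oasl2, an OAS-like protein gene, stood at 5.15, 5.76, 6.26, 4.31 and 5.39 in losartan mice 1 to 5, and 6.0, 5.63, 5.10, 5.01 and 5.26 in aliskiren mice 1 to 5, and its mean lay below the level needed for a test. It repeated the order of Rtp4 at both ends.

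Mx2 encodes a dynamin-like antiviral GTPase and stood at 5.42, 5.59, 5.63, 5.65 and 5.63 in losartan mice 1 to 5, and 5.97, 5.78, 5.57, 5.74 and 5.71 in aliskiren mice 1 to 5. Aliskiren mouse 1 was highest and losartan mouse 1 lowest, and the groups overlapped. Mx1, of which many laboratory strains carry a defective allele, stood at 4.01, 4.06, 4.0, 4.01 and 4.37 in losartan mice 1 to 5, and 4.21, 4.06, 3.89, 3.95 and 3.96 in aliskiren mice 1 to 5. Stat2, the type I signal transducer, stood at 5.10, 5.32, 5.03, 5.30 and 5.02 in losartan mice 1 to 5, and 5.38, 5.17, 5.24, 5.21 and 4.99 in aliskiren mice 1 to 5. Both lay below the level filter, and their values did not single out losartan mouse 3. Usp18, which removes ISG15 from proteins and dampens the receptor, was the remaining member below the filter, at 5.43 ± 0.44 with losartan and 5.53 ± 0.10 with aliskiren (SD, n = 5), and losartan mouse 3 was highest.

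The other type I members were Irf9, the DNA-binding partner of STAT2, the RNA sensor gene Ifih1, the RNase L activator gene Oas1a, tetherin (Bst2), Parp9, Ifi35, Xaf1, Rsad2 and Trim25. Ifih1 was 7.02 ± 0.63 with losartan and 6.88 ± 0.32 with aliskiren, and Oas1a 7.76 ± 0.56 with losartan and 7.83 ± 0.43 with aliskiren. Losartan mouse 3 was highest for Irf9, Ifih1, Oas1a, Bst2, Parp9, Ifi35 and Xaf1. Rsad2, which encodes the antiviral enzyme viperin, departed from this pattern. It stood at 9.10, 9.17, 9.10, 8.43 and 9.54 in losartan mice 1 to 5, and 9.18, 9.18, 8.78, 9.28 and 8.87 in aliskiren mice 1 to 5. Losartan mouse 5 was highest, and losartan mouse 3 ranked below losartan mice 1, 2 and 5.

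Gbp2 stood at 8.01, 8.68, 9.28, 6.48 and 7.97 in losartan mice 1 to 5, and 8.22, 8.59, 7.17, 7.57 and 8.30 in aliskiren mice 1 to 5. Losartan mice 3 and 4 were the highest and the lowest of all and enclosed the 5 aliskiren values. Irf1, the transcription factor that carries much of the interferon-gamma response, stood at 7.97, 8.71, 9.24, 7.80 and 8.74 in losartan mice 1 to 5, and 8.46, 9.0, 7.89, 8.17 and 8.39 in aliskiren mice 1 to 5. Aliskiren mouse 2 came next after losartan mouse 3. Irf8, a myeloid transcription factor, stood at 7.18, 7.62, 7.75, 6.72 and 7.37 in losartan mice 1 to 5, and 7.37, 7.33, 7.09, 6.74 and 7.16 in aliskiren mice 1 to 5. Losartan mouse 4 and aliskiren mouse 4 were lowest and lay close together. Gbp3, another guanylate-binding protein gene, was 8.0 ± 0.80 with losartan and 8.02 ± 0.36 with aliskiren (SD, n = 5).

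Genes of peptide supply to MHC class I were highest in losartan mouse 3 as well. Psmb8, a catalytic subunit of the immunoproteasome, stood at 8.29, 8.69, 9.95, 7.36 and 8.06 in losartan mice 1 to 5, and 8.80, 8.57, 7.70, 8.35 and 8.22 in aliskiren mice 1 to 5. Losartan mouse 3 exceeded the next mouse, aliskiren mouse 1, by more than a unit of log2. Psmb9 and Psmb10, the other 2 catalytic subunits, were 7.52 ± 0.68 with losartan and 7.51 ± 0.45 with aliskiren, and 8.55 ± 0.71 with losartan and 8.39 ± 0.42 with aliskiren. Tap1, a subunit of the peptide transporter, stood at 6.65, 6.86, 6.93, 5.89 and 6.72 in losartan mice 1 to 5, and 6.71, 6.87, 6.48, 6.49 and 6.42 in aliskiren mice 1 to 5. In this gene losartan mouse 4 was the one apart, and losartan mouse 3 was barely above aliskiren mouse 2. Tap2, its partner, stood at 7.57, 7.66, 8.40, 6.98 and 7.52 in losartan mice 1 to 5, and 7.64, 7.59, 7.12, 7.42 and 7.38 in aliskiren mice 1 to 5, with losartan mouse 3 apart at the top. B2m, the light chain of MHC class I, stood at 13.34, 13.43, 13.77, 13.05 and 13.07 in losartan mice 1 to 5, and 13.52, 13.36, 13.25, 13.39 and 13.26 in aliskiren mice 1 to 5. Losartan mouse 3 was highest for each of Psmb8, Psmb9, Psmb10, Tap1, Tap2, Tapbp and B2m, although losartan mice 4 and 5 were nearly equal at the low end of B2m.

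**Figure D2:**
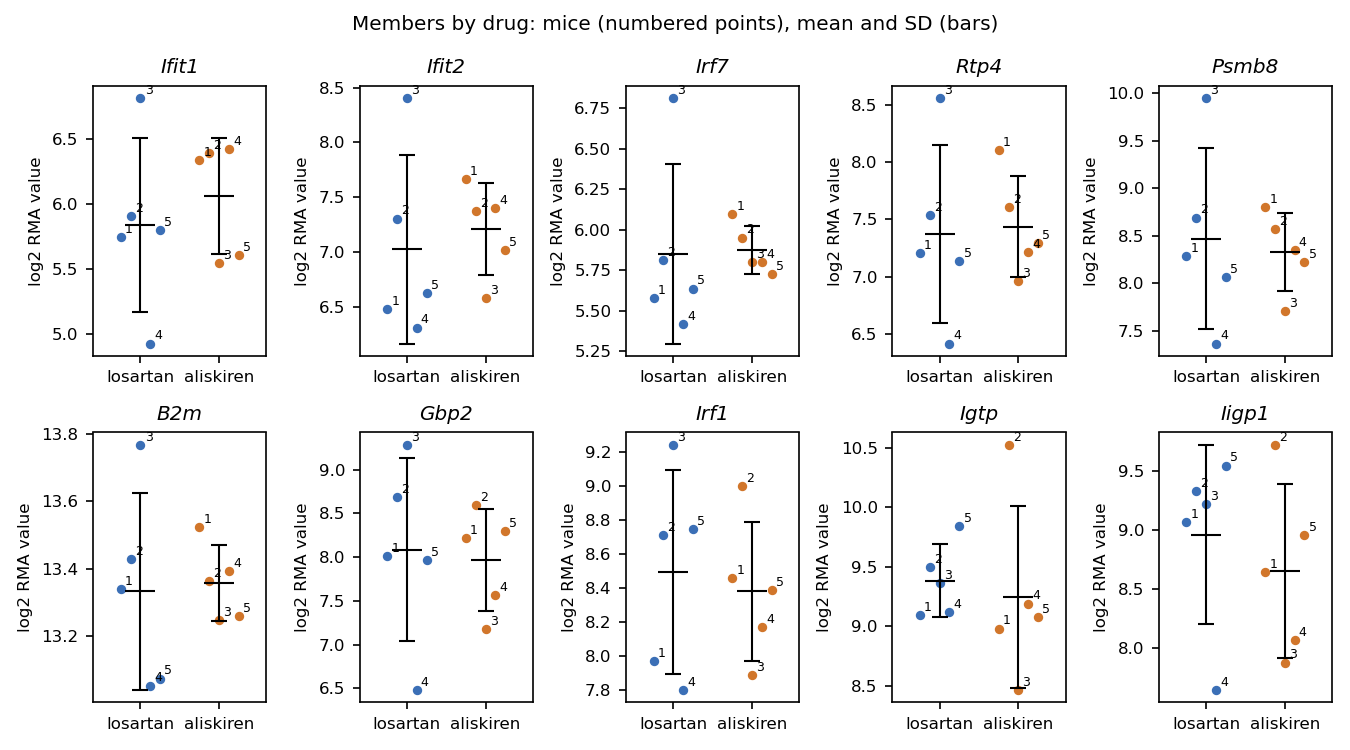
Log2 RMA values of 10 members by drug, with numbered points for the 5 mice of each group, a horizontal bar for the mean and whiskers for the SD. The groups overlap in every panel, and the aliskiren mice lie within the losartan range in all panels except those of Igtp and Iigp1.

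The immunity-related GTPases Igtp, Irgm1 and Iigp1, which take part in defence against intracellular pathogens, were not highest in losartan mouse 3. Iigp1 stood at 9.07, 9.33, 9.22, 7.65 and 9.55 in losartan mice 1 to 5, and 8.65, 9.72, 7.88, 8.07 and 8.96 in aliskiren mice 1 to 5. Aliskiren mouse 2 was highest for all 3 genes, and losartan mouse 3 lay below losartan mice 2 and 5 for Igtp and Iigp1. Igtp was 10.52 in aliskiren mouse 2 and 9.36 in losartan mouse 3, and Irgm1 10.01 and 9.57. For Irgm1 losartan mouse 3 was still the highest of the losartan group. Losartan mouse 4 was lowest for Irgm1 and Iigp1, and aliskiren mouse 3 for Igtp. The mean of the 3 genes, each centred on its mean over all mice, was 0.94 in aliskiren mouse 2 and 0.24 in losartan mouse 3. That of the 7 antigen processing members (Psmb8, Psmb9, Psmb10, Tap1, Tap2, Tapbp and B2m) was 0.23 and 0.86 in these mice, so their order was the opposite. This grouping was chosen after the values were seen and is a description. On a list of further response genes, the GTPase genes Irgm2 and Gbp6 were also highest in aliskiren mouse 2, at 9.58 and 9.37, with losartan mouse 3 at 8.63 and 8.60. Ifi47 was nearly equal in these mice, at 8.34 and 8.27, and Gbp7 was higher in losartan mouse 3, at 9.58 against 9.01.

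The drug comparison left no member apart. Of 29 members tested with limma, 0 passed an adjusted p under 0.05 and 0 had an unadjusted p under 0.05, and over all 11486 genes 0% passed, with 542 (4.72%) at an unadjusted p under 0.05. The drug groups did not overlap for 0 of the 33 measured members, against 0.914% of all genes tested. The p closest to the threshold belonged to Mx2, with a difference, aliskiren minus losartan, of 0.17 (SE 0.08, adjusted p = 0.945). Ifit3 followed among those with a higher mean, at 0.25 (SE 0.26, adjusted p = 0.949), then Ifit1 at 0.22 (SE 0.32, adjusted p = 0.965). On the other side Irf8 differed by -0.19 (SE 0.19, adjusted p = 0.949), Tap2 by -0.20 (SE 0.22, adjusted p = 0.954) and Iigp1 by -0.31 (SE 0.42, adjusted p = 0.962). For the other readouts the differences were 0.02 (SE 0.23, adjusted p = 0.996) for Irf7, -0.11 (SE 0.47, adjusted p = 0.994) for Gbp2, -0.11 (SE 0.29, adjusted p = 0.989) for Irf1, -0.14 (SE 0.41, adjusted p = 0.989) for Psmb8, -0.01 (SE 0.18, adjusted p = 0.996) for Tap1 and 0.02 (SE 0.13, adjusted p = 0.994) for B2m. The 95% interval lay within a 1.5-fold change in either direction for 12 of the 29 members and for 10075 of all 11486 genes. For Gbp2 it ran from -1.16 to 0.93, which is wider than a 1.5-fold change on both sides, whereas for Trim25 it ran from -0.14 to 0.16.

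The 2 classes leaned to opposite sides by amounts smaller than the spread between mice. Type I members had a higher mean with aliskiren in 12 of 19 cases, with a median difference of 0.02. Interferon-gamma members had a lower mean in 11 of 14 cases, with a median of -0.11. Over all genes tested 5302 were higher and 6184 lower, with a median of -0.01. These counts rested on single mice. Without losartan mouse 3 the medians were 0.17 and 0.09, and 28 of 33 members had a higher mean with aliskiren. Without losartan mouse 4 they were -0.08 and -0.27, and 28 of 33 had a lower mean. The interferon-gamma median was also positive, at 0.01, without aliskiren mouse 3. The type I median was -0.08 without aliskiren mouse 1. With both losartan mice 3 and 4 left out they were 0.10 and -0.06, and the counts were 15 of 19 higher and 11 of 14 lower.

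**Figure D3:**
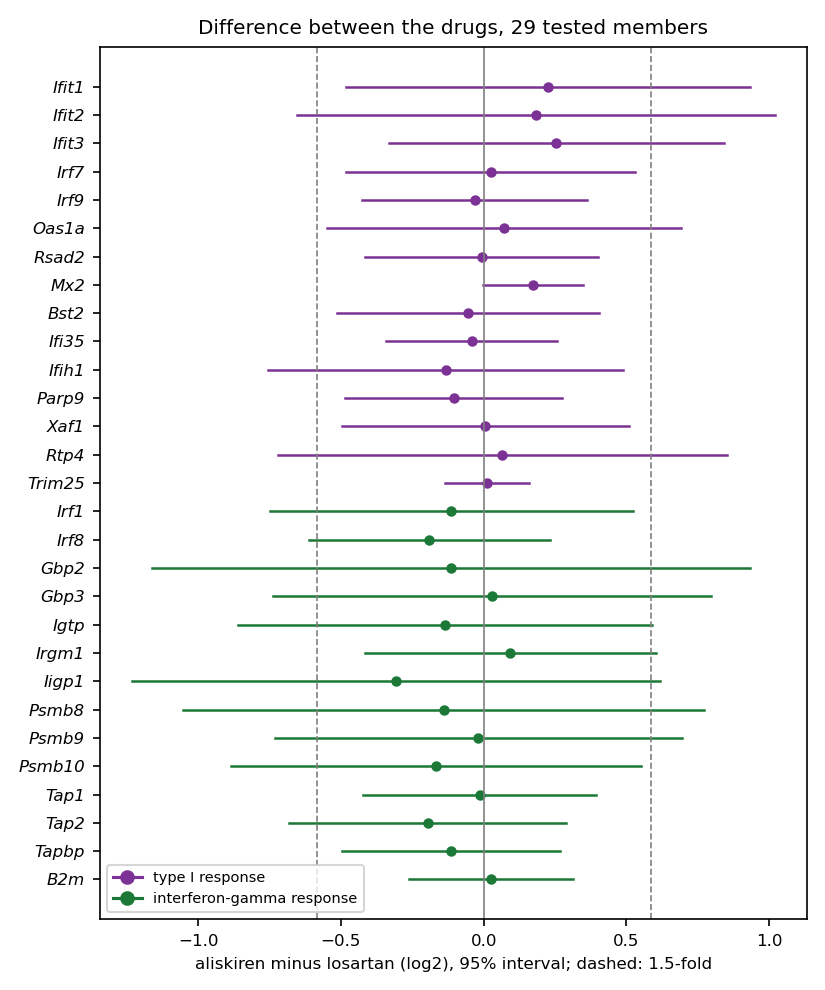
Difference between the drugs (aliskiren minus losartan, log2) with its 95% interval from limma for the 29 tested members, coloured by class, with dashed lines at a 1.5-fold change. Every interval includes 0, and that of Mx2 reaches it with its lower end of -0.0018.

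Within each mouse the classes could be set against each other. The mean centred value of the 19 type I members minus that of the 14 interferon-gamma members was -0.13, -0.17, -0.17, 0.27 and -0.13 in losartan mice 1 to 5. It was 0.23, -0.25, 0.26, 0.19 and -0.10 in aliskiren mice 1 to 5. Positive values, where the type I class stood higher than the interferon-gamma class relative to the other mice, occurred in losartan mouse 4 and in aliskiren mice 1, 3 and 4. The groups overlapped, and no p is given for this score. Both class means were lowest in losartan mouse 4, at -0.44 for type I and -0.71 for interferon-gamma, and highest in losartan mouse 3, at 0.58 and 0.75.

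**Figure D4:**
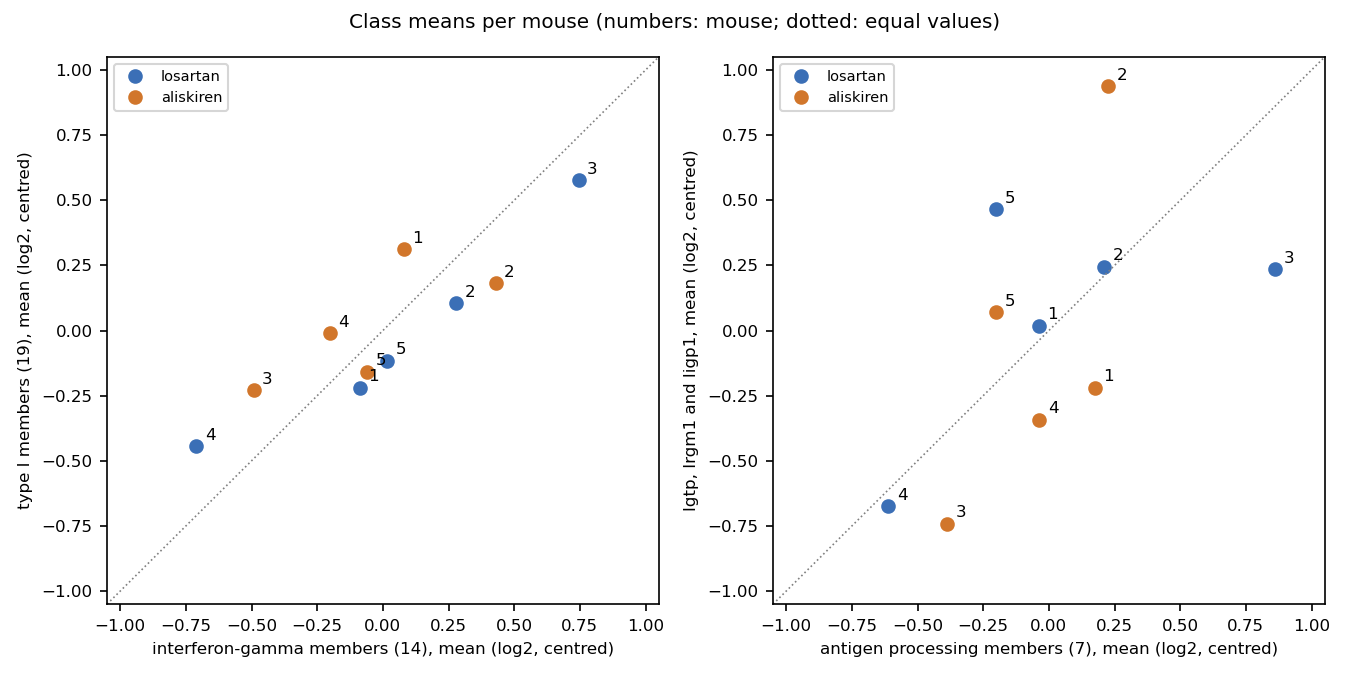
Left, mean centred log2 value of the 19 type I members against that of the 14 interferon-gamma members, and right, that of Igtp, Irgm1 and Iigp1 against that of the 7 antigen processing members, 1 numbered point per mouse and drugs by colour. On the left losartan mouse 4 is at the lower end and losartan mouse 3 at the upper end of both axes, while on the right aliskiren mouse 2 (0.94 against 0.23) and losartan mouse 3 (0.24 against 0.86) fall on opposite sides of it.

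How the members moved with injury, leukocytes and Irf7 was described with single genes over the 10 mice of both drugs. Havcr1, which encodes the injured-tubule marker KIM-1, stood at 7.23, 8.69, 10.76, 6.22 and 5.41 in losartan mice 1 to 5, and 9.37, 8.53, 6.08, 6.57 and 7.82 in aliskiren mice 1 to 5. Ptprc, the pan-leukocyte gene CD45, stood at 7.63, 7.93, 9.05, 6.16 and 7.21 in losartan mice 1 to 5, and 8.49, 7.69, 7.37, 7.56 and 8.04 in aliskiren mice 1 to 5. In both, losartan mouse 3 was highest, and aliskiren mouse 1 came next. The Pearson correlation of the tested members had a median of 0.80 with Havcr1, 0.76 with Ptprc and 0.82 with Irf7, where the medians over all genes were 0.13, 0.08 and 0.08. These readouts are not independent of each other (Havcr1 and Ptprc, r = 0.84), and every point shares 1 array between both genes.

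Members that passed for positive correlation, at a permutation p adjusted over all 34455 pairs under 0.05, numbered 14 of 29 for Havcr1, 10 of 29 for Ptprc and 12 of 28 for Irf7. Over all 11485 genes compared with each, 7.48%, 4.62% and 6.13% passed. Each adjusted p given for rho below is over the 11485 genes compared with the same gene, not over all pairs. Rtp4 and Ptprc had r = 0.95 (permutation p = 0.00019, adjusted 0.0181) and rho = 0.93 (permutation p = 0.00036, adjusted 0.0356), and r = 0.85 without losartan mice 3 and 4, the 2 farthest from the median of Ptprc. For Psmb8 and Havcr1 the values were r = 0.89 (permutation p = 0.00036, adjusted 0.0216) and rho = 0.90 (permutation p = 0.00076, adjusted 0.0483), and r = 0.87 without losartan mice 3 and 5, the farthest for Havcr1. B2m and Havcr1 gave r = 0.90 (permutation p = 0.00037, adjusted 0.0219) and rho = 0.88 (permutation p = 0.00151, adjusted 0.0605), and r = 0.74 without these. Between Ifit2 and Irf7 there was r = 0.92 (permutation p = 7e-05, adjusted 0.0154) and rho = 0.93 (permutation p = 0.00031, adjusted 0.0867), with r = 0.84 without losartan mice 3 and 4. Gbp2 and Ptprc had r = 0.87 (permutation p = 0.00201, adjusted 0.0382) and rho = 0.85 (permutation p = 0.00271, adjusted 0.0956), and r = 0.52 without losartan mice 3 and 4, a lower value than that of Rtp4. Igtp had r = 0.18, 0.03 and 0.10 with Havcr1, Ptprc and Irf7, and Rsad2 0.11, 0.42 and 0.24, and neither passed.

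The number of passing members changed with single mice, more than the size of the correlation did in some cases. Without losartan mouse 3, or without aliskiren mouse 1, 0 members passed for any of the 3 genes, and over all genes 1, 3 and 0 passed in the first case and 15, 8 and 3 in the second. The median r of the members was 0.68, 0.62 and 0.65 without losartan mouse 3, and 0.82, 0.77 and 0.82 without aliskiren mouse 1. For Havcr1 the count was 4 without losartan mouse 2, 4 without losartan mouse 4, and 5, 6 and 8 without aliskiren mice 2, 3 and 4. For Ptprc it was 3, 3 and 4 without losartan mice 2, 4 and 5 and 4 without aliskiren mouse 3, and for Irf7 it was 3 without losartan mouse 4. Without the 2 farthest mice 0 members and 0 genes overall passed, yet the median r of the members was 0.75 for Havcr1, 0.45 for Ptprc and 0.58 for Irf7, beside 0.16, 0.13 and 0.14 over all genes. Correlations over the 5 mice of a single drug are not given. With values centred on each drug's mean, 17, 17 and 19 members passed, beside 13.2%, 12.0% and 15.6% of all genes. The median r of the members was then 0.83, 0.81 and 0.83. After centring the mice were still permuted across both drugs, which can make p too small, so these counts are not comparable with the others.

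**Figure D5:**
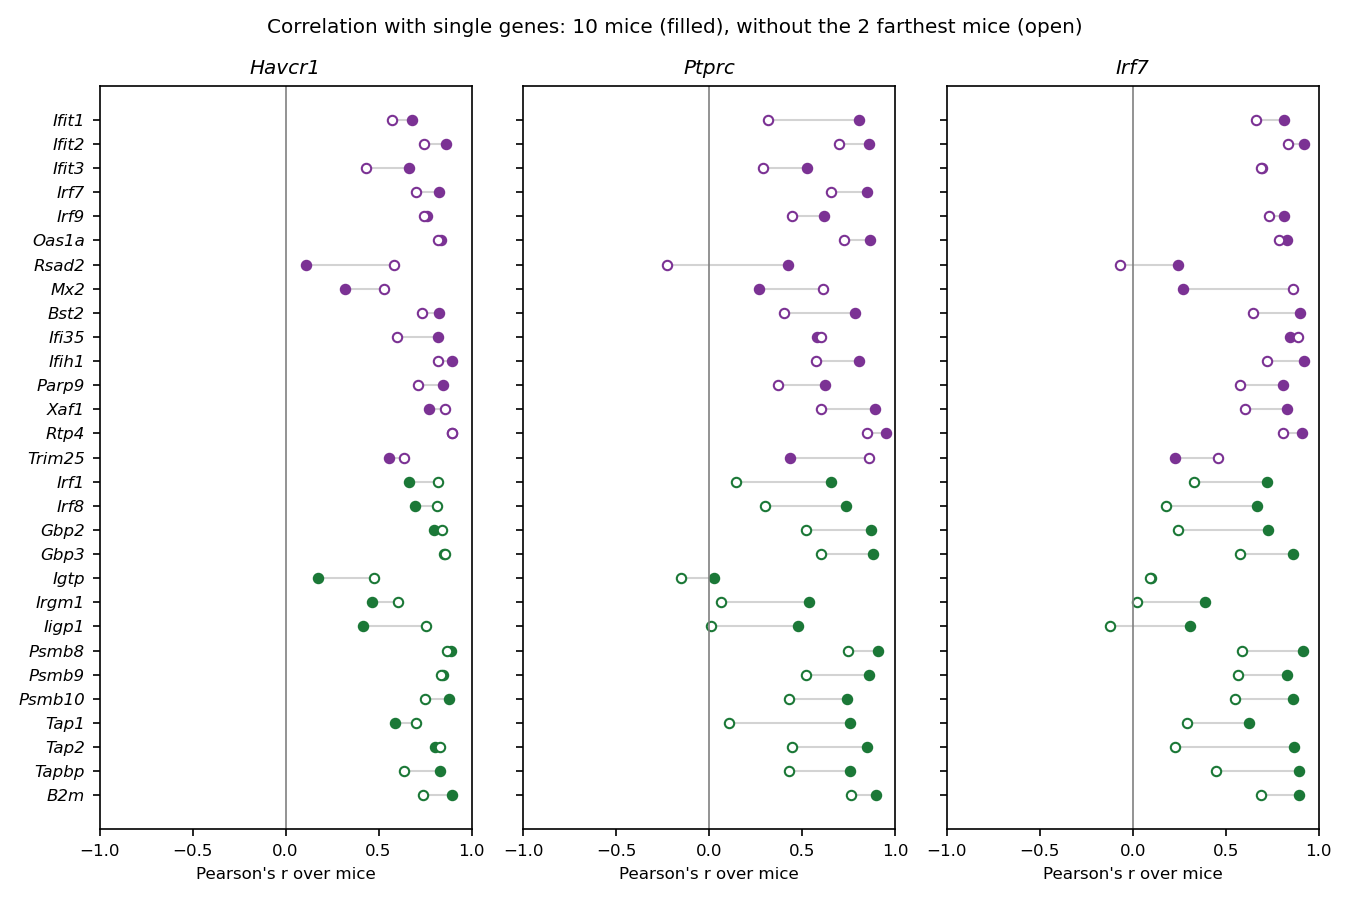
Pearson's r of each tested member with Havcr1, Ptprc and Irf7 over the 10 mice (filled points) and without the 2 mice farthest from the median of that gene (open points), coloured by class. The filled points of Igtp, Rsad2, Mx2, Irgm1, Iigp1 and Trim25 lie left of most others, where the medians are 0.80, 0.76 and 0.82. For Ptprc and Irf7 most open points lie left of the filled ones.

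Upstream genes of the pathway were read from separate lists, and 0 of their tested genes passed limma's threshold in either direction. Among the ligands only 1 of 11 genes was tested. Ifnb1, 4 interferon alpha genes and Ifng lay below the level filter, and Ifng was at 2.77 to 3.34 in all mice. Of 9 tested receptor and JAK-STAT genes 4 were higher and 5 lower with aliskiren. Ifngr1, the ligand-binding chain of the interferon-gamma receptor, stood at 8.43, 8.64, 9.72, 8.44 and 8.14 in losartan mice 1 to 5, and 9.04, 8.47, 8.48, 8.35 and 8.65 in aliskiren mice 1 to 5. Losartan mouse 3 was again highest, and the difference was -0.08 (SE 0.26, adjusted p = 0.992). Tyk2, a receptor-bound kinase, had the smallest p of that list at 0.10 (SE 0.11, adjusted p = 0.952). Among 4 tested negative regulators the smallest p was that of Pias1, at -0.07 (SE 0.06, adjusted p = 0.949). Of 13 tested genes of nucleic acid sensing 5 were higher and 8 lower, and Irf5, a transcription factor of myeloid cells, had 0.23 (SE 0.13, adjusted p = 0.945).

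Further response genes also had 0 calls. Of 24 tested further type I genes, 13 were higher and 11 lower with aliskiren, led by the nucleotide kinase gene Cmpk2 at 0.18 (SE 0.12, adjusted p = 0.948). Of 14 further interferon-gamma genes 2 were higher and 12 lower, led by Wars1 at -0.10 (SE 0.06, adjusted p = 0.948). The first list had a mean level between 6.86 in losartan mouse 4 and 7.89 in losartan mouse 3, and the second between 7.85 and 8.84 in the same mice.

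The macrophage, endothelial and dendritic cell lists were highest in losartan mouse 3 and lowest in losartan mouse 4, like most members, and the other marker lists were not. The macrophage list, with 11 of 12 genes tested, had a mean level of 6.38 to 9.53 with losartan and 7.17 to 8.76 with aliskiren. The tubular injury list, 5 of 7 tested, ran from 7.19 to 10.85 with losartan and from 7.54 to 9.40 with aliskiren, highest in losartan mouse 3 and lowest in losartan mouse 5. The endothelial list, 6 of 6 tested and each lower with aliskiren, ran from 7.19 to 8.18 and from 7.42 to 7.82. The perirenal fat list, 3 of 10 tested, reached 12.21 in losartan mouse 3, 9.76 in aliskiren mouse 3 and 8.01 in aliskiren mouse 2. It lay between 6.40 and 6.64 in the other mice. T and NK cell genes, the usual source of interferon-gamma, were mostly below the filter, with 2 of 11 tested and a mean of 6.10 to 6.53 and 6.32 to 6.59, and losartan mouse 3 was the lowest. That mean rests on Cd3e and Cd4. Of the list's genes below the filter, Cd8a, Cd8b1, Nkg7 and Gzma were also lowest in losartan mouse 3. Cd3g was highest in that mouse at 5.27 and lowest in losartan mouse 4 at 3.99. Cd3d was 5.63 in losartan mouse 3, next to the highest value, 5.66 in losartan mouse 1. For Ncr1 losartan mouse 3 was at neither end. Of dendritic cell genes 2 of 7 were tested, at 5.87 to 6.63 and 5.89 to 6.10. This mean rests on Flt3 and Itgax, and its order came from Itgax, at 7.12 in losartan mouse 3 and 5.44 in losartan mouse 4. Flt3 was 6.13 and 6.31 in these mice and did not share that order. Of B and plasma cell genes 2 of 6 were tested, at 6.00 to 8.0 and 6.08 to 8.10, and of neutrophil genes 0 of 6. The part of these cells in the members' values was not tested. In whole cortex, fewer cells of a type and less RNA per cell cannot be told apart.

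Probe sets of a gene mostly repeated its pattern where they had signal. The second probe sets of Gbp2 and Iigp1 gave differences of -0.20 and -0.24 and had r = 0.982 and 0.995 with the first over the 10 mice. For B2m the pair gave 0.02 and -0.01. Trim25 was an exception: its probe set of lowest signal differed by 0.35 between the drugs where that of highest signal, used here, differed by 0.01. These 2 sets had r = 0.016. The second probe sets of Tap1, Stat2 and Xaf1 did not repeat the first either, with r = -0.41, -0.28 and -0.58. Their means of 5.15, 4.16 and 3.71 lay below the level filter. The Gbp2 probe set used carries the suffix that Affymetrix gives to sets that may cross-hybridise, and those of Ifi35 and Trim25 the suffix for sets shared between transcripts, so related genes may add to these 3.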

How the data were processed

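Total RNA of renal cortex, 100 ng per mouse, was hybridised to 1 Affymetrix array for each of 10 mice. The deposited log2 values were made by the authors (RMA, run in Expression Console 1.1 according to the submitters' processing notes) and were used as they are. The number of arrays limits the precision. Of 45101 probe sets, 64 controls were left out, and of the rest 34945 had 1 gene symbol in the platform annotation, 932 several and 9160 none. Each gene took its probe set of highest mean, and 11486 genes with a mean of at least 5.53, the median of all probe sets, were tested with limma 3.58.1 in R 4.3.3, with Benjamini-Hochberg adjustment over all of them. Array medians lay between 5.52 and 5.56, and 0 pairs of arrays held identical values.

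Correlations used 100000 permutations of the mice, two-sided, adjusted over 34455 pairs. Both programs were tested on simulated data. The members and lists were chosen with earlier results of these data known. Per-mouse values are given for 9 measured readouts, for the 3 members of smallest p in each direction and for the 3 of largest SD in each class, and pathway lists are given by counts, Ifngr1 and their gene of smallest p. Rsad2, Igtp, Irgm1, Irgm2, Gbp6, Gbp7, Ifi47, Cd3g, Cd3d and the gene pairs quoted for correlations were picked after their values were seen. Mouse numbers did not pair the groups. Alternatives changed the level filter, the probe set rule, the scaling, the variance model and the mice included, and leaving out losartan mice 3 and 4 together was chosen after seeing the data. The labels give separate mice, 1 array each.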

Additional observations from a re-analysis of the deposited data

Results flagged for a closer look

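Within groups of 5 mice, 8 of 76 groups examined held a mouse whose gap to its nearest neighbour exceeded 0.71 of the group's range. For a single group chance gives about 1 in 20. Many of these genes and class scores move together in the same mice, so the groups are not independent and the count cannot be set against that rate. Losartan mouse 4 was lowest and apart for Irgm1 at 8.65, for Iigp1 at 7.65 and for Tap1 at 5.89. In the same mouse the type I mean stood above the interferon-gamma mean by 0.27, the only such value in its group. Losartan mouse 3 was highest and apart for Irf7 at 6.81. Losartan mouse 5 was highest for Mx1 at 4.37, a gene below the level filter, and losartan mouse 1 was lowest for Mx2 at 5.42. Among aliskiren mice, mouse 1 was highest for Usp18 at 5.71, also below the filter.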

How the results depend on the processing

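In every alternative 0 genes and 0 members passed limma's threshold, and the lowest adjusted p of a named member was 0.695. The ordinary statistic without moderation gave 573 genes at an unadjusted p under 0.05. With the mouse number as a replicate block the count passing was again 0, with 450 genes at an unadjusted p under 0.05. The deviations of same-numbered mice correlated at -0.06, -0.23, -0.03, 0.42 and 0.23, so the numbers were not read as pairs. Of 176 values of the 17 named members under settings other than leaving out 1 mouse, 3 turned in sign: Tap1 was 0.017 after quantile normalization, B2m was -0.015 with the probe set of largest variance, and Oasl2 was -0.032 without losartan mice 3 and 4. Of 170 values with 1 mouse left out, 28 turned, in 10 members. Their ranges were -0.0047 to 0.47 for Ifit1, -0.084 to 0.26 for Irf7, -0.52 to 0.19 for Gbp2, -0.29 to 0.073 for Irf1, -0.42 to 0.23 for Psmb8, -0.19 to 0.065 for Tap1, -0.045 to 0.13 for B2m, -0.17 to 0.36 for Rtp4, -0.24 to 0.25 for Oasl2 and -0.0022 to 0.096 for Stat2. The class medians ranged from -0.08 to 0.17 for type I and from -0.27 to 0.09 for interferon-gamma.

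The number of members correlated with Havcr1, 14 in the report, was 9 after quantile normalization, where the share of all genes fell from 7.48% to 4.87%, and 0 to 14 with 1 mouse left out. For Ptprc, 10 in the report, it was 4 with the mean of all probe sets (2.45% of all genes), 17 with values centred on each drug group's mean (12.0%, against 4.62%) and 0 to 13 with 1 mouse left out. For Irf7, 12 in the report, it was 19 after centring (15.6% of all genes, against 6.13%) and 0 to 11 with 1 mouse left out. Without the 2 farthest mice, and without losartan mice 3 and 4, it was 0 for each gene. The counts after centring are not comparable with the rest, because the mice were still permuted across both drugs. The cause of these changes was not tested.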

Other observations

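Ifi27l2a, an interferon-induced gene outside the list that was picked after its values were seen, had the values 6.70, 7.66, 11.03, 6.03 and 6.78 in losartan mice 1 to 5, and 8.81, 8.03, 9.34, 6.96 and 7.51 in aliskiren mice 1 to 5. Losartan mouse 3 was highest and aliskiren mouse 3 came next, although the class means of the members in aliskiren mouse 3 were low, at -0.23 and -0.49. The perirenal fat markers were highest in the same mice, at 12.21 and 9.76, and their part in this value was not tested.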
